A study of Mus musculus with 8 samples.

Results

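The C/EBP factors and Gfi1 are 7 genes, Cebpa, Cebpb, Cebpd, Cebpe, Cebpg, Cebpz and Gfi1, chosen by name from the 33435 genes of a table of raw read counts, and all 7 were listed there. They were compared between 4 libraries from cells infected with a Trim27 virus (the Trim27 group) and 4 libraries from cells infected with a GFP control virus (the GFP group), which the series' design text describes as an empty vector. In both groups the starting cells were stem and progenitor cells of the blood, taken from the fetal liver of C57BL/6J mice at stage E14.5, and myeloid progenitors were sorted from them after infection. Polyadenylated RNA was sequenced. The sources used here give neither the promoter of the virus, nor the number of livers pooled, nor the surface markers of the sort.

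C/EBP proteins bind DNA as dimers through a basic region and a leucine zipper (bZIP). In the myeloid lineage C/EBP alpha, encoded by Cebpa, is needed for progenitors to enter the granulocyte and monocyte path, C/EBP beta supports granulocyte production under stress, and C/EBP epsilon drives the late, granule-forming steps of granulocytes. Gfi1 is a zinc finger repressor that works with C/EBP factors toward granulocytes and holds back monocyte genes, whereas PU.1 (Spi1) and Irf8 favour monocytes. Cebpz shares the family's name through binding to a CCAAT sequence, but it has no leucine zipper and belongs with the Noc proteins of ribosome assembly.

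Promoter sequences are shown for Cebpa, Cebpg and Gfi1, because RNA of the first did not pass the test, of the second rose and of the third fell in the Trim27 group. In GENCODE M21 (GRCm38), Cebpa and Cebpg lie on chromosome 7, Cebpb on 2, Gfi1 on 5, Cebpe on 14, Cebpd on 16 and Cebpz on 17. The sequences come from RefSeq on build GRCm38.p6, whose table held 4 of the 7 members (Cebpb is the fourth), and each window runs from 250 bases before the annotated start to 50 bases after it. Gfi1 has 2 annotated starts, and the upstream one is shown. Capitals mark every match, on either strand, to the C/EBP core site TTGCG, the spaced C/EBP site TTGCNNAA, the CCAAT box CCAAT, the PU.1-type site GAGGAAG and the Gfi1 core AATCNNNGC.
Cebpa promoter (chr7:35119043-35119342, plus strand): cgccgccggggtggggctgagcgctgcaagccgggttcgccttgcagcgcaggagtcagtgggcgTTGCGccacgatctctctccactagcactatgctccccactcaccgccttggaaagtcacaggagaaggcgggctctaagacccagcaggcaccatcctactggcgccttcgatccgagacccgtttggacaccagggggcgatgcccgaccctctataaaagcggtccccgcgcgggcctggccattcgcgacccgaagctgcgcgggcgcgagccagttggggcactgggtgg
Cebpg promoter (chr7:35056517-35056816, minus strand): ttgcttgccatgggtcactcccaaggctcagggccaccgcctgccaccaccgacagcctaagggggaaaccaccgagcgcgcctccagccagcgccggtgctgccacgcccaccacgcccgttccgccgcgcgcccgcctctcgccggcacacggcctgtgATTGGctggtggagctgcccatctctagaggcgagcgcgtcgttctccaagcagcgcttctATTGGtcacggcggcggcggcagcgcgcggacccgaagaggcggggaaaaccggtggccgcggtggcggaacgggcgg
Gfi1 promoter (chr5:107725756-107726055, minus strand): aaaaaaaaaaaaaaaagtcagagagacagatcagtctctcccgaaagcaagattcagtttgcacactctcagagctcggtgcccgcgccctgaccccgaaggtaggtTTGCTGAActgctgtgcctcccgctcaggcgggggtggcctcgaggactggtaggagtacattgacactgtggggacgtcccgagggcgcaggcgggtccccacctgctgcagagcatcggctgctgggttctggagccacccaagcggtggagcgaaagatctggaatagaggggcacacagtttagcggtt
The Cebpa window holds 1 match, the core site starting at position -185, counted with the first transcribed base as 1 and no position 0. TTGCG is present in 17.4% of 32851 promoter windows of this length. Cebpg has 2 CCAAT boxes on the opposite strand, starting at -89 and -28, and 37.4% of windows have at least 1. The upstream Gfi1 window has TTGCTGAA at -143, a match to TTGCNNAA, which 10.8% of windows hold. The site GAGGAAG (13.6% of windows) and the core AATCNNNGC (10.3%) do not occur in the windows of these 4 members. These are matches of letters and no measurement of binding.

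Depth ran from 9257889 to 10747794 counts per GFP library and from 10551137 to 16366571 per Trim27 library. Most genes differed between the groups: 85.5% of 11040 tested genes passed an adjusted p of 0.05 (47.5% rose and 38% fell), and for 80.7% the groups did not overlap. Ribosomal protein genes took 26.6% to 26.7% of counts in GFP libraries and 18.5% to 19.3% in Trim27 libraries. Trim27 itself ran from 171.1 to 190.7 CPM (counts relative to the scaled size of the library) among GFP libraries and from 267.7 to 310.7 CPM among Trim27 libraries, so its order follows the labels. All 9 markers of the sorted myeloid progenitors were detected, and 8 fell and 1 rose in the Trim27 group (median log2 fold change -0.51), with 5 falls and 2 rises by library size alone. Kit (-0.60), Cd34 (-1.05) and Fcgr3 (-1.11), singled out after their values were seen, fell, and Csf2rb was the one that rose. Of 15 erythroid genes 14 were in the table, of which 5 rose and 9 fell, with summed levels of 2317 to 2336 CPM (GFP) and 1739 to 1871 CPM (Trim27). By library size alone 5 rose and 6 fell. Under a scaling that removes each library's trend with transcript length, fitted on abundant genes, 7 rose and 5 fell. Slc4a1 among the rises and Hbb-bh1 among the falls passed the minimum count through 1 group only. Whether the 4 libraries of a group are separate infections is not labelled, so p-values speak to the spread among these libraries alone, and that may be technical. Of 9 T and NK cell genes 3 could be tested: Gzmb rose from 23.0 to 112.0 CPM, while Lck fell from 28.9 to 2.16 CPM and Nkg7 from 4.93 to 0.146 CPM. Nkg7 passed the minimum count only through the GFP libraries. The summed level was 1.20 to 1.703 CPM (GFP) and 15.1 to 17.6 CPM (Trim27) for hepatocyte genes (6 of 10 had no count), 76.1 to 85.1 and 34.1 to 35.3 CPM for endothelial and stromal genes (6 of 11 had no count), and 229.6 to 243.0 and 133.8 to 138.0 CPM for stem cell genes. The part of these marker shifts in the falls of Cebpe and Gfi1 and the other results was not tested.

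Of the 7 members, 3 rose in the Trim27 group (Cebpd, Cebpg and Cebpz), 2 fell (Cebpe and Gfi1), Cebpa did not pass and Cebpb had too few counts to be tested. Under a scaling that removes each library's trend with transcript length, Cebpg no longer passed and Cebpa fell. The 5 calls among 6 tested members are read against the background of 85.5%, which was 81.2% for genes with a mean of 0 to 2 log2 CPM, 87.1% from 2 to 4, 85.4% from 4 to 6 and 86.5% from 6 to 8. CPM did not overlap between the groups for 6 of the 7 members, against 80.7% of all tested genes. Neither share stands out from its background. The members thus did not move as one group. In bulk RNA of a sorted population, fewer cells of a type and less RNA per cell cannot be told apart.

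**Figure D1:**
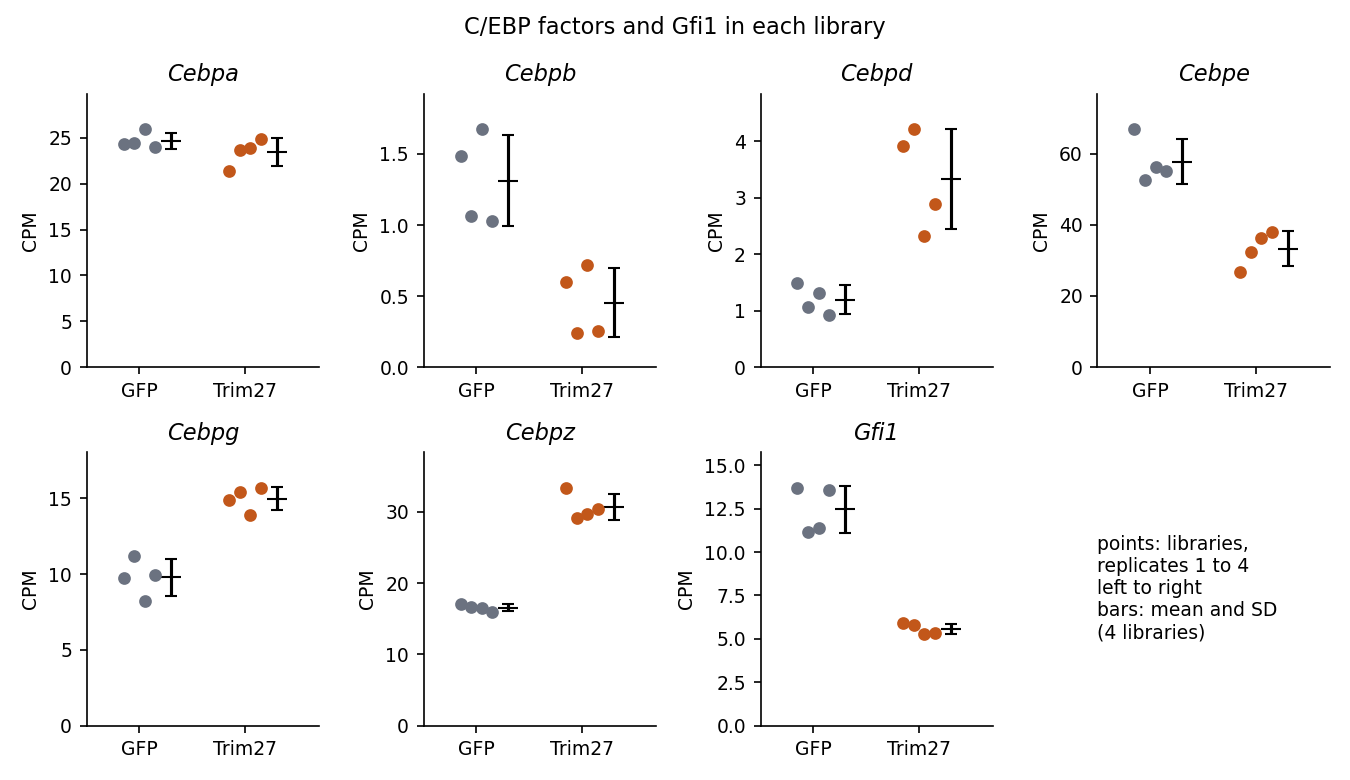
CPM relative to the scaled library size (vertical axis, from 0, a separate range for each gene) of the 7 members in the 4 GFP and 4 Trim27 libraries; points are libraries and bars are the mean and SD. Cebpa overlaps between the groups, Cebpb, Cebpe and Gfi1 lie lower in every Trim27 library, and Cebpd, Cebpg and Cebpz lie higher, although the Cebpg log2 fold change was -0.033 once the length trend was removed.

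Cebpa, the factor that opens the granulocyte and monocyte path, was at 24.3, 24.5, 25.9 and 23.96 CPM in the GFP libraries (replicates 1 to 4, the order used throughout) and at 21.4, 23.7, 23.9 and 24.9 CPM in the Trim27 libraries. The groups overlapped, and Trim27 replicate 1 was the lowest library. The log2 fold change was -0.075 (SE 0.10, 95% interval -0.27 to 0.12, adjusted p = 0.482 by the edgeR quasi-likelihood test, Benjamini-Hochberg over all tested genes). Of all tested genes, 4.89% had a smaller absolute change. The sign of this value rested on the scaling. It was 0.23 (adjusted p = 0.0335) when libraries were scaled by their totals only. Removing the length trend gave -0.40 (adjusted p = 0.000482).

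Cebpb, the factor of stress granulopoiesis, had only 13, 10, 14 and 10 counts in the GFP libraries and 10, 4, 13 and 3 counts in the Trim27 libraries. Relative to library size these were 1.49, 1.06, 1.67 and 1.03 CPM against 0.602, 0.241, 0.718 and 0.255 CPM, so every Trim27 library was below every GFP library. The group means were 1.31 ± 0.318 CPM and 0.454 ± 0.243 CPM (SD, n = 4 each), 2.89-fold apart (exact permutation test, 2-sided, p = 0.0286, the smallest that 4 against 4 allows). Any gene whose groups do not overlap gets this unadjusted p, and that was so for 80.7% of tested genes. The gene missed the count filter because it asks for 0.939 unscaled CPM in 4 libraries, which 3 GFP and 0 Trim27 libraries reached. With no filter its log2 fold change was -1.43 (adjusted p = 0.00955). At 30 counts over the Trim27 libraries, the size of the difference is poorly fixed. Low counts were mostly even in these libraries, and whether fewer molecules than counts lie behind them was not tested.

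Cebpd, a family member induced by cytokines and in the acute phase, was the other member near the floor. It had 13, 10, 11 and 9 counts in the GFP libraries (1.49, 1.06, 1.32 and 0.925 CPM) and 65, 70, 42 and 34 counts in the Trim27 libraries (3.91, 4.21, 2.32 and 2.89 CPM). All 4 Trim27 libraries were higher, with replicates 1 and 2 above replicates 3 and 4. The rise was 2.78-fold in mean CPM, a log2 fold change of 1.48 (SE 0.32, adjusted p = 9.2e-05), and 65.4% of tested genes changed less. Cebpd met the count filter only through the Trim27 libraries, since the filter asks for 4 libraries and 3 GFP libraries reached it, so its rise is tied to its being tested at all. Its exons share 562 bases with Spidr, a DNA repair gene on the opposite strand, which fell from 15.1 ± 0.726 to 5.93 ± 0.308 CPM. No source used here gives the strand setting of the counting, and without it reads of this pair cannot be told apart.

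Cebpe, the factor of late granulocyte steps, had the highest mean CPM of the members in each group and fell. In Trim27 replicate 1 it lay below Cebpz (33.4 CPM). Cebpe was at 66.8, 52.6, 56.2 and 55.1 CPM in the GFP libraries and at 26.8, 32.3, 36.3 and 37.9 CPM in the Trim27 libraries. GFP replicate 1 was the highest library and Trim27 replicate 1 the lowest, and the groups were well apart. The mean was 1.73-fold lower, a log2 fold change of -0.80 (SE 0.10, adjusted p = 1.59e-08), and 44.3% of tested genes changed less. The raw counts of Cebpe summed to 2085 in each group, so the fall is one relative to the deeper Trim27 libraries. It kept its sign and its call under each alternative, from -0.88 without Trim27 replicate 4 to -0.38 when the length trend was fitted on abundant genes and removed. Without GFP replicate 1 the log2 fold change of Cebpe was -0.72. B cell RNA varied among the libraries: the sum over 10 B cell genes was 66.6 to 160.5 CPM in the GFP group and 41.1 to 56.2 CPM in the Trim27 group, and none of the 10 was at 0 in every library.

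Cebpg, a short family member that lacks an activation domain and pairs with other bZIP proteins, was at 9.71, 11.2, 8.25 and 9.97 CPM in the GFP libraries and at 14.9, 15.4, 13.9 and 15.7 CPM in the Trim27 libraries. Each Trim27 library was above each GFP library. The mean was 1.53-fold higher, a log2 fold change of 0.61 (SE 0.14, adjusted p = 0.000171). Its call, like that of Cebpa, turned on transcript length. With the length trend removed the value was -0.033 (adjusted p = 0.83), and with the trend fitted on abundant genes it was 0.63.

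Cebpz, the ribosome assembly protein, was at 17.1, 16.6, 16.5 and 15.9 CPM in the GFP libraries and at 33.4, 29.2, 29.7 and 30.5 CPM in the Trim27 libraries. The libraries within each group lay close together. The mean was 1.85-fold higher, a log2 fold change of 0.89 (SE 0.10, adjusted p = 2.59e-09), and after removal of the length trend the rise was 0.36 (adjusted p = 0.00154). Its exons share 171 bases with Cebpzos, a small gene on the opposite strand that was picked for its position after the values were seen. Cebpzos fell from 13.1 ± 0.880 to 2.37 ± 0.203 CPM, a log2 fold change of -2.46 (adjusted p = 2.84e-13). The overlapping pair moved in opposite directions. As for Cebpd and Spidr, reads of the shared bases cannot be told apart without the strand setting.

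Gfi1, the repressor, was at 13.7, 11.2, 11.4 and 13.6 CPM in the GFP libraries and at 5.90, 5.78, 5.30 and 5.35 CPM in the Trim27 libraries. The highest Trim27 library reached less than the lowest GFP library, and the Trim27 libraries hardly differed among themselves. The mean was 2.23-fold lower, a log2 fold change of -1.16 (SE 0.16, adjusted p = 1.1e-07), and 58.1% of tested genes changed less. The fall held under each alternative, from -1.56 with the length trend removed to -0.85 by library size alone. Gfi1b, the paralog that serves the erythroid and megakaryocyte lineages, was far more abundant. It went from 384.9 ± 11.7 to 327.5 ± 19.5 CPM (log2 fold change -0.23, adjusted p = 9.51e-05), but this fall was not seen under library size alone, where the value was 0.07 (adjusted p = 0.151).

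**Figure D2:**
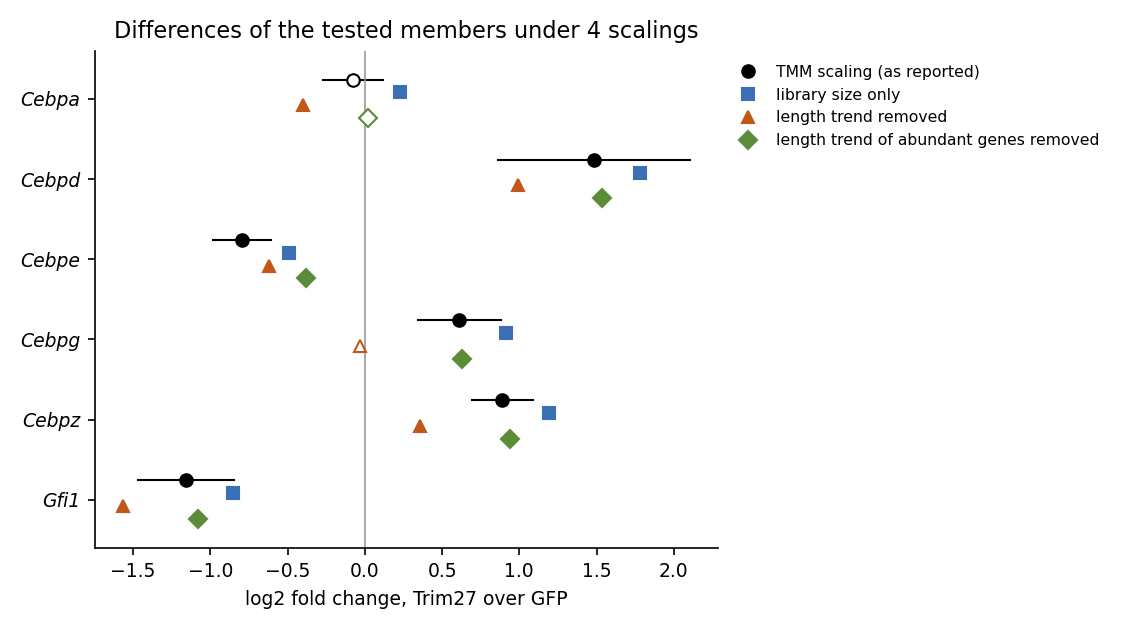
Log2 fold change of the 6 tested members (horizontal axis, Trim27 over GFP) under 4 scalings; filled symbols passed an adjusted p of 0.05, open symbols did not, and the black lines are 95% intervals of the values reported. Cebpe and Gfi1 lie below 0 and Cebpd and Cebpz above 0 in all 4, Cebpa takes either sign, and Cebpg reaches -0.033 with the length trend removed.

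Transcript length moved with these results. The 3 members that rose had the longest merged exons (3746 bases for Cebpd, 4070 for Cebpz and 5005 for Cebpg), and Cebpe had the shortest (1241). Gfi1 fell at 3105 bases, and Cebpa and Cebpb measured 2636 and 1504. Among all tested genes the median log2 fold change was -0.090 from 1000 to 2000 bases, 0.31 from 2000 to 4000 and 0.56 from 4000 to 8000. Gfi1 thus lay on the other side of 0 from the median of its length class, as did Cebpa (-0.075), which did not pass. Cebpd, Cebpe, Cebpg and Cebpz lay on the same side as theirs. Among genes of 3 to 6 log2 CPM, where Cebpe lies, the median from 1000 to 2000 bases was 0.031, on the other side from Cebpe. The part of length in these differences was not tested beyond the scalings given.

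Divided by transcript length, the members kept a steep order. In the GFP group the level per transcript length and library size (RPKM) was 46.5 ± 5.07 for Cebpe, 9.36 ± 0.331 for Cebpa, 4.06 ± 0.121 for Cebpz, 4.01 ± 0.443 for Gfi1, 1.95 ± 0.240 for Cebpg, 0.873 ± 0.211 for Cebpb and 0.320 ± 0.0669 for Cebpd (SD, n = 4). Cebpz and Gfi1 overlapped there and cannot be ranked. In the Trim27 group Cebpe was still first at 26.8 ± 3.96 RPKM. Cebpa (8.90 ± 0.564) and Cebpz (7.54 ± 0.463) overlapped in the range of their libraries. Cebpg (2.99 ± 0.156) then lay above Gfi1 (1.80 ± 0.0969), and Cebpd (0.890 ± 0.236) above Cebpb (0.302 ± 0.161), the reverse of their order in the GFP group. Before division by length, Cebpb and Cebpd overlapped in the GFP group (1.31 ± 0.318 and 1.20 ± 0.251 CPM). Their order there thus rests on the merged exon lengths (1504 and 3746 bases). Among the 5 bZIP members, Cebpe made up 78.7% ± 1.72 of the summed RPKM (GFP) and 67.0% ± 2.89 (Trim27), while Cebpa made up 15.96% ± 1.42 and 22.4% ± 1.10. The sum itself was 59.0 ± 5.14 and 39.9 ± 4.30 RPKM.

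**Figure D3:**
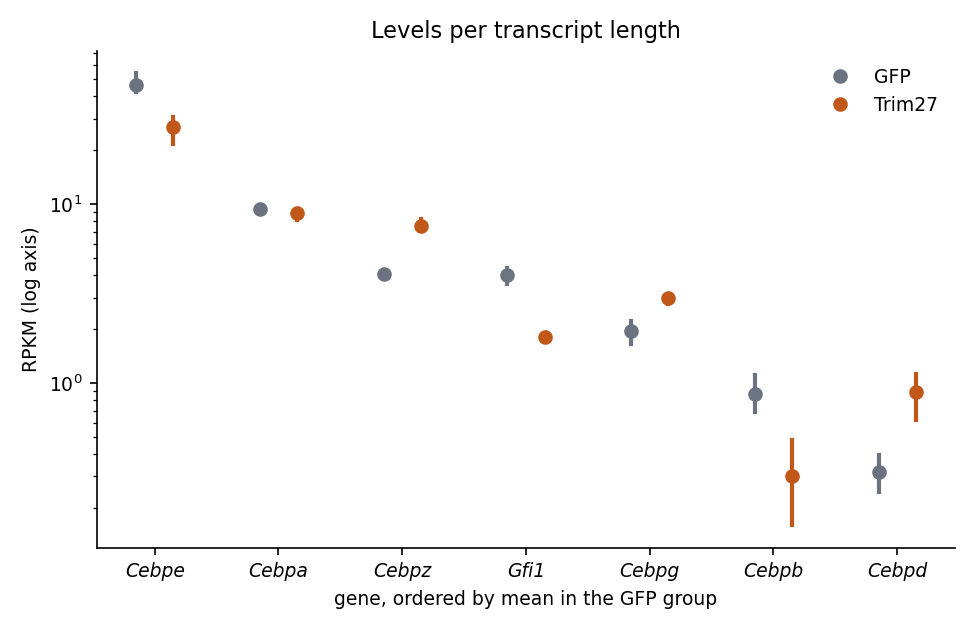
RPKM of the 7 members (vertical log axis), ordered by the GFP mean; points are group means and lines run from the lowest to the highest of 4 libraries. Cebpe is highest in both groups, and Gfi1 and Cebpg as well as Cebpb and Cebpd exchange places. The GFP order of Cebpb and Cebpd rests on their merged exon lengths, since their CPM overlapped in that group.

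Ratios of counts within a library do not depend on the factor by which a library is scaled, but they do change where a trend with transcript length is removed. Such balances are followed because PU.1 and Irf8 compete with C/EBP factors and Gfi1 for the monocyte or granulocyte choice. The 4 ratios were chosen with the members' differences known and are given without a test. The log2 ratio of Cebpa to Spi1 was -1.47, -1.41, -1.33 and -1.59 in the GFP libraries and -2.40, -2.41, -2.33 and -2.28 in the Trim27 libraries. All Trim27 libraries were lower, by 0.91 on the log2 scale between the means (1.87-fold). Spi1 itself was at 67.6 ± 3.31 (GFP) and 120.03 ± 5.18 CPM (Trim27), and Cebpa overlapped between the groups. With the length trend removed the difference was -1.05, an alternative chosen after seeing the data.

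The log2 ratio of Cebpe to Cebpa was 1.22 ± 0.165 (GFP) and 0.50 ± 0.133 (Trim27), and these did not overlap either. Their difference of -0.72 came to -0.22 with the length trend removed and to -0.40 with the trend fitted on abundant genes. The ratio of Cebpb to Cebpa was -4.21 ± 0.302 and -5.73 ± 0.796, and it rests on the few Cebpb counts. For Gfi1 to Irf8 the log2 ratios were 2.08, 2.97, 3.19 and 5.73 in the GFP libraries and -0.48, -0.75, -0.83 and -0.50 in the Trim27 libraries. Gfi1 counts thus exceeded those of Irf8 in each GFP library and fell short of them in each Trim27 library. Irf8 itself had 28, 13, 10 and 2 counts in the GFP libraries and 137, 162, 171 and 89 in the Trim27 libraries. Its log2 fold change of 2.57 was larger in size than that of Gfi1 (-1.16). Irf8 met the count filter only through the Trim27 libraries, so its GFP level rests on few counts. The high value of GFP replicate 4 rests on 2 Irf8 counts in that library, and without it the difference of the means was -3.38 in place of -4.13.

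**Figure D4:**
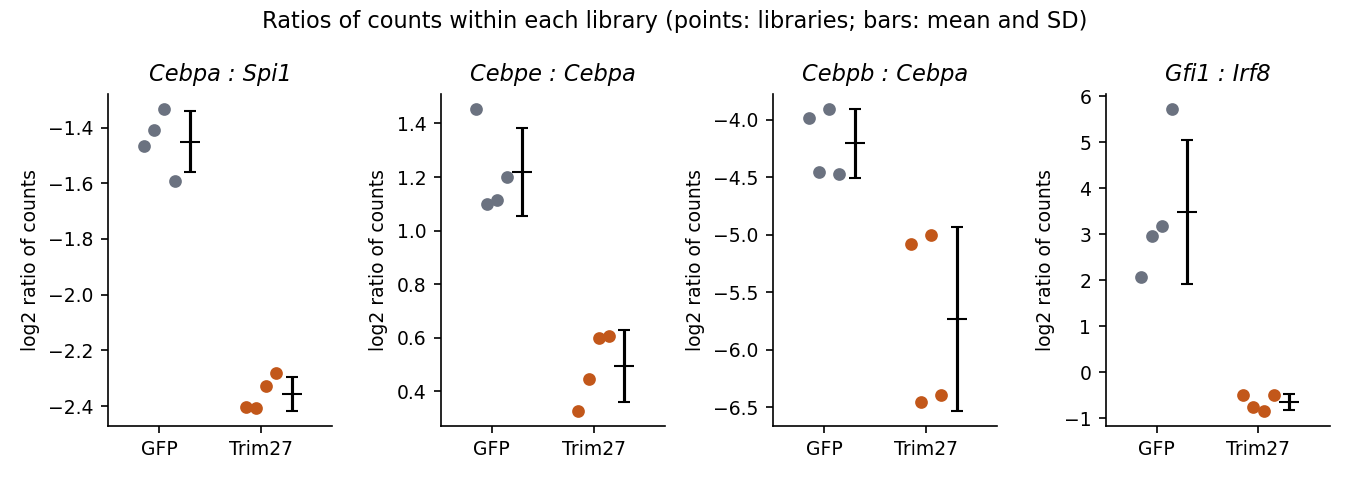
Log2 ratio of raw counts (with 0.5 added to each) for 4 gene pairs in each library; points are libraries and bars the mean and SD of 4. The groups do not overlap for any pair, though the Cebpe to Cebpa difference of -0.72 is -0.22 with the length trend removed, and the Gfi1 to Irf8 ratio is above 0 in the GFP libraries and below 0 in the Trim27 libraries.

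The counts for the gene lists that follow are descriptions, to be read against the background of 85.5% called, 47.5% risen and 38% fallen. Genes that met the count filter only through the Trim27 libraries had to be high there, so counts are also given without genes admitted through 1 group only. Of 18 bZIP partners of C/EBP factors 15 were tested, of which 7 rose, 5 fell and the other 3 missed the threshold (80% called), or 4 rose and 5 fell among the 12 admitted through both groups. Their median log2 fold change was -0.017, against 0.14 for all tested genes, and by library size alone 8 rose and 1 fell. Ddit3, which encodes CHOP, a dimer partner that blocks C/EBP binding, fell from 25.6 ± 1.62 to 3.91 ± 1.01 CPM (log2 fold change -2.68, SE 0.16). It overlaps Mars and Gm4189 on the opposite strand. Crebzf, a bZIP coregulator, rose by 1.36. The AP-1 member Junb fell (-0.38), but was at -0.079 (adjusted p = 0.299) by library size alone, and the AP-1 inhibitor Batf fell (-0.50), but was at 0.093 (adjusted p = 0.41) when the trend was fitted on abundant genes and removed.

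Of 19 tested kinases, ubiquitin ligases and factors that act on C/EBP proteins or genes, 8 rose, 9 fell and the rest missed the threshold (89.5% called, median 0.088), or 7 rose and 9 fell among the 18 admitted through both groups. By library size alone 10 rose and 5 fell, and after removal of the length trend 7 rose and 10 fell (median -0.45). Rfwd2, which encodes the ligase COP1 that marks C/EBP alpha for degradation together with Tribbles proteins, fell from 29.4 ± 4.21 to 5.35 ± 0.662 CPM (-2.45, SE 0.14). Mapk3, which encodes the kinase ERK1, rose from 19.0 ± 3.64 to 49.6 ± 2.87 CPM (1.39). Runx1, which acts on the Cebpa and Spi1 genes, rose by 1.10, or by 0.28 after removal of the length trend, and Spi1 by 0.83.

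Granule genes are known targets that C/EBP factors activate. The primary granule list of 10 genes also holds genes of other kinds, such as Igsf6 and Ms4a3. Of these 10, 9 were tested, of which 3 rose and 6 fell (median -0.28), but 4 rose and 3 fell by library size alone. Igsf6 and Prss57 among the rises and Nkg7 among the falls were admitted by the filter through 1 group only, and without them 1 rose and 5 fell. Prtn3, proteinase 3, fell (-0.75) and Ms4a3, a marker of granulocyte and monocyte progenitors, fell (-0.51), the latter being at 0.049 (adjusted p = 0.491) under the length scaling fitted on abundant genes. Lyz2, lysozyme, rose from 7.51 ± 2.30 to 24.5 ± 0.849 CPM, with the caveat that its near copy Lyz1 can share reads. Igsf6, a membrane protein of the immunoglobulin superfamily that had no count in any GFP library, was at least 164-fold higher against a floor of 3 counts over that group. Of 12 secondary granule and late neutrophil genes, 4 could be tested and 5 had no count at all: S100a9, a calcium-binding protein of neutrophils, rose (0.54), Anxa1 fell (-0.80), and 2 did not pass, while removing the length trend left 3 up and 1 down.

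Of 7 cytokine receptor genes 5 were tested, of which 4 rose and 1 fell (median 0.35). Csf3r was admitted only through the Trim27 libraries, and 3 rose and 1 fell among the 4 admitted through both groups. Over all 5, removing the length trend left 2 up and 1 down. Csf2rb, the common beta chain used by GM-CSF and related cytokines, rose by 1.34, and its near copy Csf2rb2 can share reads with it. Csf2ra (0.35) and Il3ra (0.34) rose as well, although removing the length trend left them at 0.23 (adjusted p = 0.0696) and 0.034 (adjusted p = 0.824). Csf1r, the M-CSF receptor of monocytes, fell (-3.59) and shares 873 exon bases with Hmgxb3 on the opposite strand. Csf3r, the G-CSF receptor and a known C/EBP alpha target, was named after its values were seen. It had 0 counts over the GFP libraries and 800 over the Trim27 libraries, at least 153-fold higher against the same floor, which takes each count as 1 molecule.

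Gfi1 acts through corepressors. Of 15 tested genes, its paralog included, 7 rose, 3 fell and 5 missed the threshold (66.7% called, median 0.13), or 3 rose and 3 fell among the 11 admitted through both groups, with 7 up and 7 down once the length trend was removed. Rcor1, the CoREST scaffold that links Gfi1 to histone demethylase, rose from 7.04 ± 0.816 to 34.2 ± 2.09 CPM (2.28) and the deacetylase gene Hdac1 from 31.4 ± 3.29 to 81.4 ± 3.37 CPM (1.37). Pias3, which binds Gfi1 and was admitted only through the Trim27 libraries, had 4 counts over the GFP libraries and 1534 over the Trim27 libraries.

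Of 12 genes known to be repressed by Gfi1 9 were tested, of which 6 rose and 3 fell (median 0.96), or 4 rose and 3 fell among the 7 admitted through both groups. That median includes Irf8 and Meis1, which rose and were admitted only through the Trim27 libraries. Over all 9, removing the length trend left 4 up and 3 down. Egr1, a factor of monocyte differentiation, rose from 34.7 ± 3.23 to 92.6 ± 4.97 CPM (1.41) and the cell cycle inhibitor Cdkn1a from 41.3 ± 0.885 to 93.3 ± 5.68 CPM (1.18). Id1, an inhibitor of basic helix-loop-helix factors, fell from 152.9 ± 6.39 to 84.1 ± 6.10 CPM (-0.86). Of 14 monocyte and macrophage markers, 8 had no count in any library, 2 rose and 2 fell, and their sum was 44.1 to 49.3 CPM (GFP) and 23.4 to 27.3 CPM (Trim27). Both rises (Ctss and Emr1) were admitted only through the Trim27 libraries, and Ly6c2, a fall, only through the GFP libraries. Csf1r, the 1 marker admitted through both groups, fell. The part of monocytes and macrophages in the values of Gfi1 and its targets was not tested.

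For Cebpz, the relevant neighbours are the Noc proteins and other factors that build the large ribosomal subunit. Of 11 tested, 7 rose, 2 fell and 2 missed the threshold (81.8% called, median 0.36), or 6 rose and 2 fell among the 10 admitted through both groups, with 5 up and 5 down once the length trend was removed. Rrp1b (1.12) and Nop2 (0.75) rose, and Bop1, of the PeBoW complex, fell from 709.5 ± 15.6 to 491.1 ± 38.1 CPM (-0.53). Its partner Wdr12 rose (0.36), but was at -0.55 (adjusted p = 7.02e-11) with the length trend removed. Rrp1b overlaps Hsf2bp and Bop1 overlaps Mroh1 on the opposite strand. Among 12 tested lineage factors, 8 rose, 2 fell and the other 2 missed the threshold (83.3% called, median 0.70), or 7 rose and 2 fell among the 10 admitted through both groups, and removing the length trend left 6 up and 4 down. The erythroid factor Gata1, an antagonist of PU.1, rose (0.91) while the erythroid factor Klf1 fell (-0.86).

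**Figure D5:**
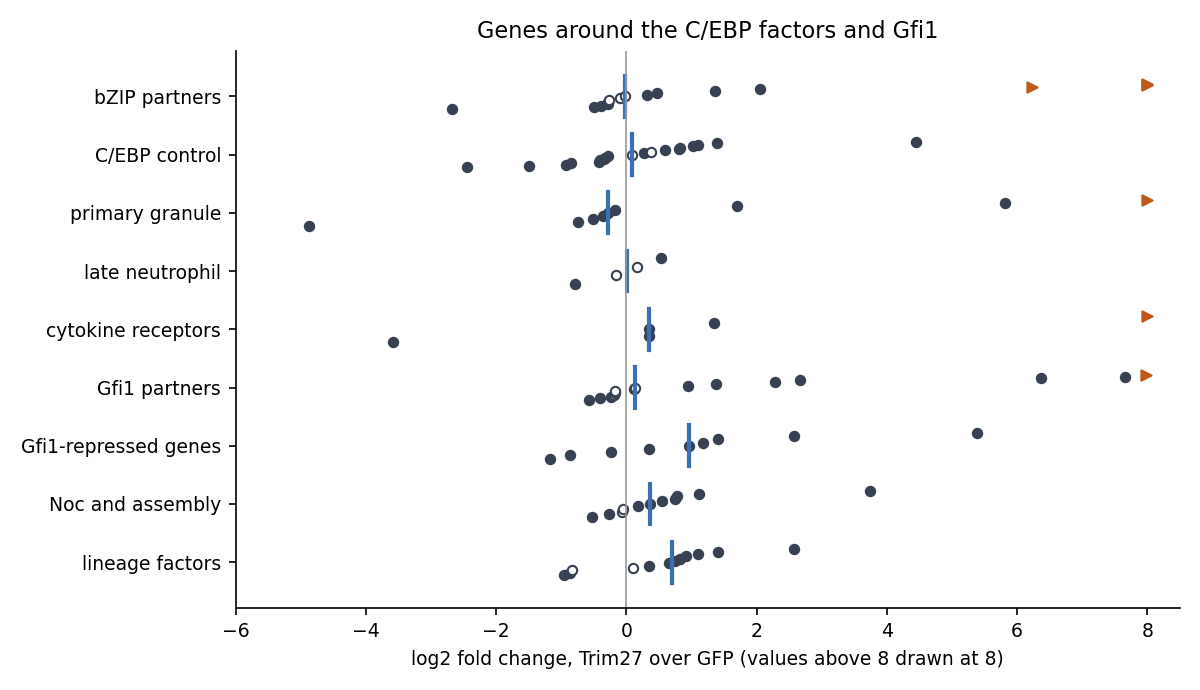
Log2 fold change (horizontal axis, Trim27 over GFP, main scaling) of the tested genes in 9 lists around the members; filled points passed an adjusted p of 0.05, open points did not, triangles are genes with at most 3 counts over 1 group (values above 8 drawn at 8), and blue bars are list medians. Each list holds genes on both sides of 0, and the medians run from -0.28 for the primary granule list to 0.96 for Gfi1-repressed genes. The latter was 0.078 with the length trend removed. Both medians include genes admitted by the count filter through 1 group only.

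The genes whose levels ran most like each member were found by Pearson's r of log2 CPM over the 8 libraries, among the 6555 genes that averaged 3 log2 CPM or more. Since the groups differ for most genes, a high r here can come from the group difference alone. For Cebpe the closest were Snrpa (0.997) and Nosip (0.996), and 1621 genes exceeded 0.9. For Gfi1 they were U2af1l4 (0.996) and Tmem189 (0.994), with 2233 genes over 0.9. Cebpz ran closest to Nop58 (0.999), a core protein of small nucleolar ribonucleoproteins, and Myh9 (0.999), with 2046 over 0.9. Cebpg ran closest to Rbm6 (0.989) and Clns1a (0.987), and Cebpd to Arcn1 (0.982) and Mdm1 (0.979). Cebpa, whose CPM overlapped between the groups, had 2 genes over 0.9, Trappc1 (0.958) and Hagh (0.957).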

How the data were processed

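The authors deposited raw counts by gene symbol for the 8 libraries in a single table. Per the submitters' processing notes, tools were bcl2fastq, HISAT2 and featureCounts, with build NCBIM37. The sources used here give no versions, annotation, strand setting or handling of multi-mapping reads. A single line without a gene name held 0 counts and was left out. Of counts from 1 to 10, 64.7% to 72.0% were even. Why was not tested, so low counts and floors of 3 counts may rest on fewer molecules.

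Genes were kept by filterByExpr (minimum count 10, total 15), scaled by TMM and tested 2-sided without covariates by edgeR 4.0.16 (quasi-likelihood, robust) in R 4.3.3, with Benjamini-Hochberg adjustment over all 11040 genes. Standard errors came from the F statistic. CPM is relative to TMM-scaled sizes, and RPKM divides by merged exon length in GENCODE M21 (GRCm38), used for lengths and overlaps only. The fit was first tested on simulated data in which few genes differed and no length trend was set. That test cannot speak to the scaling of these data, where most genes differed. The removed length trend was a lowess curve per library.

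The members, lists, ratios and tests were chosen with earlier results of these data known. Genes named were the members, up to 4 per list by smallest p among those averaging 3 log2 CPM or more, those in ratios and the 2 most alike per member. Alternatives covered scaling, filters, DESeq2 1.42.0, limma-voom 3.58.1, replicate block, transcript length, threshold and leaving out each library. Cop1 was looked up as Rfwd2. Of the genes this rule names, 2 are not reported here.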

Additional observations from a re-analysis of the deposited data

How the results depend on the processing

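Cebpd, Cebpe, Cebpz and Gfi1 kept direction and call under each alternative that tested them. Cebpd was not tested under the filter of 10 CPM in 4 libraries. Cebpa was not called at -0.075, but reached 0.23 (adjusted p = 0.0335) by library size only and, when the length trend was taken out, -0.40 (adjusted p = 0.000482); Cebpg then went from 0.61 to -0.033 (adjusted p = 0.83); the cause was not tested. With the length trend removed (chosen after seeing the data), the ratio difference of Cebpa to Spi1 went from -0.91 to -1.05 and that of Cebpe to Cebpa from -0.72 to -0.22, or to -0.40 with the trend of abundant genes removed. Library size only shifted the median of all tested genes by 0.30 (6277 rises, 3106 falls), removing the length trend by -0.20 (4381 and 4852) and removing that of abundant genes by 0.23 (5956 and 3219). Leaving out 1 library at a time gave 9352 to 9529 called genes and 6 called members, since Cebpb then entered the test (log2 fold change -1.80 to -1.26). Same-numbered libraries did not deviate together (correlations -0.22, -0.16, 0.05 and -0.02). Libraries with different numbers reached 0.26 (GFP replicate 2 with Trim27 replicate 1), so these values cannot tell whether the numbers pair the libraries. The labels give no pairing. The replicate block gave 9160 calls, with 5 members called as before, and Cebpa at -0.076. Depth limits Cebpb (47 counts over the GFP and 30 over the Trim27 libraries) and Cebpd (43 over the GFP libraries).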
